A study of Mus musculus with 12 samples.

Results

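The 35 genes described here are targets of the p53 family of transcription factors, measured in 2 cell fractions of the mouse testis with and without TAp73. They were chosen by symbol from general knowledge of the family, but with earlier results of these data known. All probes whose transcript accession maps to a member symbol were taken, which found 42 probes for 35 of 35 genes among 39429 probes, and all 35 were among the 25028 genes tested. Of the 35, 33 were well above background on all 12 arrays. The exceptions were Eda2r, for which no germ array reached that level, and Rrm2b, which passed on all but 1 control germ array.

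RNA came from 6 male C57BL/6J mice, with 1 array of a fraction labelled Sertoli cells and 1 array of a germ cell pellet per mouse. The TAp73 knockout group held mouse 120, aged 4 months, and mice 86 and 72, aged 8 months. The control group held mouse 99, aged 5 months, and mice 73 and 74, aged 8 months. The source names call all 3 controls wildtype, but the titles call mice 73 and 74 het, and mouse 99 is the only one titled WT. The labels name the lost product as TAp73, the Trp73 isoform with the transactivation domain, and do not describe the allele. Slide 1 carried mice 120 and 99, slide 2 mice 86 and 73, and slide 3 mice 72 and 74, so each slide held both genotypes and both fractions.

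TAp73 is a relative of p53 and p63 that binds the same DNA element and can switch on many of the same genes. These targets stop the cell cycle, start apoptosis through mitochondria or death receptors, repair DNA, and adjust metabolism and autophagy. In the testis, apoptosis removes surplus and damaged germ cells, and Sertoli cells nurse the remaining ones to maturity. A target can also be transcribed without any p53 family protein, so its level is no direct reading of the pathway.

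Of the 35 members, 26 had an entry in the RefSeq promoter table (GRCm38.p6, 250 bases before to 50 after each start site). Cdkn1c, Rrm2b, Ddb2, Xpc, Perp, Tnfrsf10b, Trp53inp1, Zmat3 and Pmaip1 had none. An exact match to the 10-base p53 decamer, the unit that is repeated in a full p53 element, was looked for on the strand of the gene, and because the consensus is its own reverse complement this covers both strands. It was present in 9 of these 26 genes (34.6%), against 2582 of all 27025 genes with an entry (9.55%). Those 9 were Aen, Bax, Ccng1, Cdkn1a, Ckap2, Ei24, Gadd45a, Polk and Sesn1. A gene with several windows was counted if any of them held a match. The members were chosen as known targets, so their share of matches is no test of these data. A run of 2 decamers in direct succession, with at most 1 mismatch over both, occurred in Cdkn1a and Ccng1 and in 22 of the 27025 genes (0.0814%). The stretches below show these pairs, and those of Gadd45a and Ckap2 show a lone decamer in a gene with a large and a gene without a detected difference between the fractions. Capitals mark whole decamers and pairs, including the 1 mismatched base that each pair holds. The Cdkn1a stretch also shows a lone decamer before its pair. A match is a property of the letters, with no binding measured here.
Cdkn1a, chr17:29090729-29090978, + strand: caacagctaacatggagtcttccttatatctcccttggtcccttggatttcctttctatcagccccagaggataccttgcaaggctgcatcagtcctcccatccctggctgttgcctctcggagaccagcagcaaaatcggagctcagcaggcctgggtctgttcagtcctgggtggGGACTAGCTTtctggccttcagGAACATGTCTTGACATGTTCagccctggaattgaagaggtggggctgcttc
Ccng1, chr11:40755432-40755501, - strand: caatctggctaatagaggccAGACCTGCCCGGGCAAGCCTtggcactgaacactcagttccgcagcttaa
Gadd45a, chr6:67037408-67037477, - strand: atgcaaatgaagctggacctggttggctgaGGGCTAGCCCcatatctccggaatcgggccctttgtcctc
Ckap2, chr8:22185983-22186052, - strand: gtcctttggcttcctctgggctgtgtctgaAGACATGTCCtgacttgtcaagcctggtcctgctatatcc

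Levels are log2 of the processed signal relative to the 75th percentile of its array, so 0 means the brightness of that percentile. They were compared between probes to choose the brightest probe of a gene and to set the bound for Eda2r. Linear levels were added over probes in the marker sums, which the brightest markers can dominate. A difference is given with its standard error (SE) from the model, and a call is a Benjamini-Hochberg adjusted p below 0.05 in limma over all 25028 genes. The 75th percentile lay between 1354 and 5350 intensity units, with the lowest on the Sertoli array of control mouse 74. Over the genes tested that had a value on every array, r was 0.969 to 0.993 between mice of a group and 0.508 to 0.597 between the fractions. Trp73 was read by a probe whose position relative to the deletion is not given in the sources used here. It stood at -1.91, -2.79 and -2.35 in knockout germ arrays, against -4.28, -3.10 and -2.68 in control germ arrays, and at -2.91, -2.82 and -2.72 in knockout Sertoli arrays, against -3.56, -4.01 and -2.13 in control Sertoli arrays. This probe was not lower in either knockout fraction and does not check the labels.

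The fraction labelled Sertoli went against part of its label. Of 12 listed Sertoli markers, Amh and Fshr were not well above background on any of its arrays, while each was so on some array of both germ groups. The summed linear level of the 12 was 64.6 to 72.1 in knockout and 52.5 to 66.9 in control Sertoli arrays. It was 119 to 137 in knockout and 90.9 to 109 in control germ arrays. Of the 11 markers tested, all but Amh, 2 were called higher in the fraction labelled Sertoli in knockout mice (Gata4 and Inhbb) and 4 in control mice (Gata4, Inhbb, Sox9 and Wt1). In each genotype 6 were called lower. The 9 peritubular myoid and fibroblast markers were called higher in it in both genotypes, with a summed level of 447 to 683 in knockout and 554 to 1007 in control Sertoli arrays, against 13.4 to 14.3 in knockout and 7.72 to 9.44 in control germ arrays. It is therefore called by its label only. Fewer cells of a type and less RNA per cell cannot be told apart in these bulk fractions.

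No member was called in germ cells between knockout and control mice, but most members lay higher in the knockout germ arrays. The difference was positive for 28 of 35 members, with a median of 0.21, while it was positive for 11384 of 25028 genes, with a median of -0.04. The 28 include the receptor gene Eda2r, which no germ array measured well above background. Limma called 0.216% of all genes higher and 0.00400% lower in this comparison, that is 54 genes and 1 gene. The count of 54 rested on single mice: it was 2 without knockout mouse 72 or 86 or control mouse 73, 3 without control mouse 99, 29 without control mouse 74 and 129 without knockout mouse 120. At an unadjusted p below 0.05, 9 members were higher and 1 was lower, against 6.11% and 1.23% of all genes. The smallest adjusted p of a member in limma was 0.173.

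Groups of 3 arrays did not overlap for 11 members. In 10 of them every knockout germ array lay above every control germ array (6.56% of all genes), and in Cdkn1c every knockout germ array lay below (9.14% of all genes). The 10 spread over the roles: Cdkn1a, Plk3, Btg2 and Ccng1 act on the cell cycle, Phlda3 and Bbc3 on apoptosis, Fas is a death receptor, Rrm2b supplies nucleotides for DNA repair, and Fdxr and Dram1 belong to redox metabolism and autophagy. Values below follow the order of mice 120, 86 and 72 for knockouts and 99, 73 and 74 for controls.

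**Figure D1:**
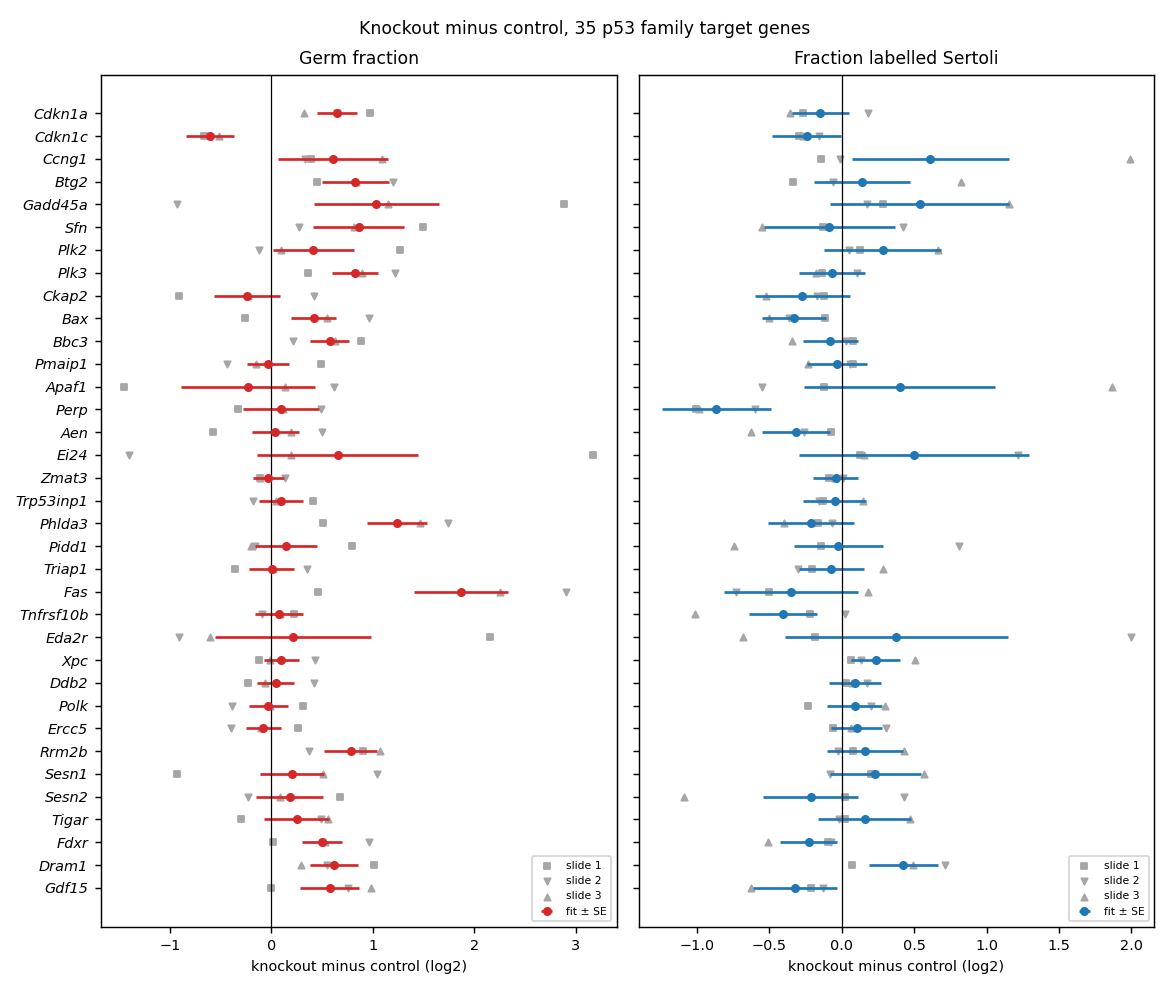
Knockout minus control differences on the log2 scale for the 35 members in the germ fraction (left) and the fraction labelled Sertoli (right); coloured points with bars are the fit and its SE, grey symbols the difference between the knockout and the control mouse of each slide. In germ, Fas (1.87) and Phlda3 (1.24) lie farthest to the right and Cdkn1c (-0.60) farthest to the left, and the Sertoli points lie on both sides of 0.

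Phlda3, which encodes a pleckstrin-homology protein that restrains the kinase Akt, had the smallest p of the members in this comparison. It stood at -0.82, 0.56 and 0.21 in knockout germ arrays, against -1.33, -1.18 and -1.25 in control germ arrays. The control arrays lay close together, and knockout mouse 120 was the nearest of its group to them. The difference was 1.24 ± 0.30 (SE, n = 3 each, adjusted p = 0.173 in limma). It was 0.51 on slide 1, 1.74 on slide 2 and 1.46 on slide 3. Without mouse 120, the younger knockout, it was 1.64 and passed the threshold, with an adjusted p in limma of 0.0201, while over the 17 alternative settings the adjusted p ran from 0.0201 to 1.

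Fas, the receptor for Fas ligand that starts the extrinsic apoptosis route, had the widest difference of the 35. Its levels were -4.00, -2.16 and -3.06 in knockout germ arrays, against -4.45, -5.07 and -5.31 in control germ arrays. Knockout mouse 86 was highest and control mouse 74 lowest, and the groups were separated by a gap between mice 120 and 99 of 0.45, the same slide. The difference was 1.87 ± 0.46 (SE, n = 3 each, adjusted p = 0.183 in limma). It did not pass in any of the 17 alternative settings, where the adjusted p ran from 0.0842 to 0.829.

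Plk3, a stress-responsive polo-like kinase, stood at -3.41, -2.64 and -3.25 in knockout germ arrays, against -3.77, -3.86 and -4.14 in control germ arrays. Knockout mouse 86 was again the highest array. The difference was 0.82 ± 0.23 (SE, n = 3 each, adjusted p = 0.254 in limma). Cdkn1a, which encodes the cyclin-dependent kinase inhibitor p21, stood at -1.31, -1.17 and -1.37 in knockout germ arrays, against -2.28, -1.81 and -1.69 in control germ arrays. The 3 knockout arrays were close together, and control mouse 99 was lowest. Its difference was 0.65 ± 0.20 (SE, n = 3 each, adjusted p = 0.318 in limma).

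Bbc3, the BH3-only protein Puma that acts upstream of Bax, stood at -0.97, -1.07 and -0.81 in knockout germ arrays, against -1.85, -1.28 and -1.43 in control germ arrays. The groups were separated, and their difference was 0.57 ± 0.19 (SE, n = 3 each, adjusted p = 0.376 in limma). Rrm2b, the p53-induced ribonucleotide reductase subunit, read -6.13, -5.76 and -5.55 in knockout germ arrays, against -7.03, -6.14 and -6.61 in control germ arrays. These are dim values, and 2 of 3 control arrays were well above background. Its difference was 0.78 ± 0.26 (adjusted p = 0.395 in limma).

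Dram1, a lysosomal membrane protein that promotes autophagy, read -2.82, -2.55 and -2.67 in knockout germ arrays, against -3.83, -3.10 and -2.96 in control germ arrays. Control mouse 99 lay apart from the other 2 controls, and the difference was 0.62 ± 0.24 (adjusted p = 0.525 in limma). Fdxr, the mitochondrial ferredoxin reductase, read 1.04, 1.63 and 1.51 in knockout germ arrays, against 1.02, 0.67 and 0.99 in control germ arrays. Mice 120 and 99, on the same slide, differed by 0.02, so the separation of the groups rests on a narrow margin there. The fitted difference was 0.50 ± 0.20 (adjusted p = 0.547 in limma).

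Btg2, an antiproliferative cofactor, read -0.14, 0.49 and -0.44 in knockout germ arrays, against -0.59, -0.71 and -1.27 in control germ arrays, a difference of 0.83 ± 0.33 (adjusted p = 0.571 in limma). Ccng1, which encodes cyclin G1, read -2.50, -2.29 and -2.13 in knockout germ arrays, against -2.89, -2.62 and -3.22 in control germ arrays, a difference of 0.60 ± 0.54 (adjusted p = 0.997 in limma). In both genes the knockout arrays lay above the controls by less than the SE of a single difference at their nearest points.

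Cdkn1c, the imprinted gene of the cell cycle inhibitor p57, was the one member with all knockout germ arrays below the controls. It read 1.50, 1.54 and 1.45 in knockout germ arrays, against 2.17, 2.17 and 1.97 in control germ arrays. Both groups were tight, and the difference was -0.60 ± 0.24 (SE, n = 3 each, adjusted p = 0.558 in limma). It was close to this on each slide, at -0.67, -0.62 and -0.52.

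**Figure D2:**
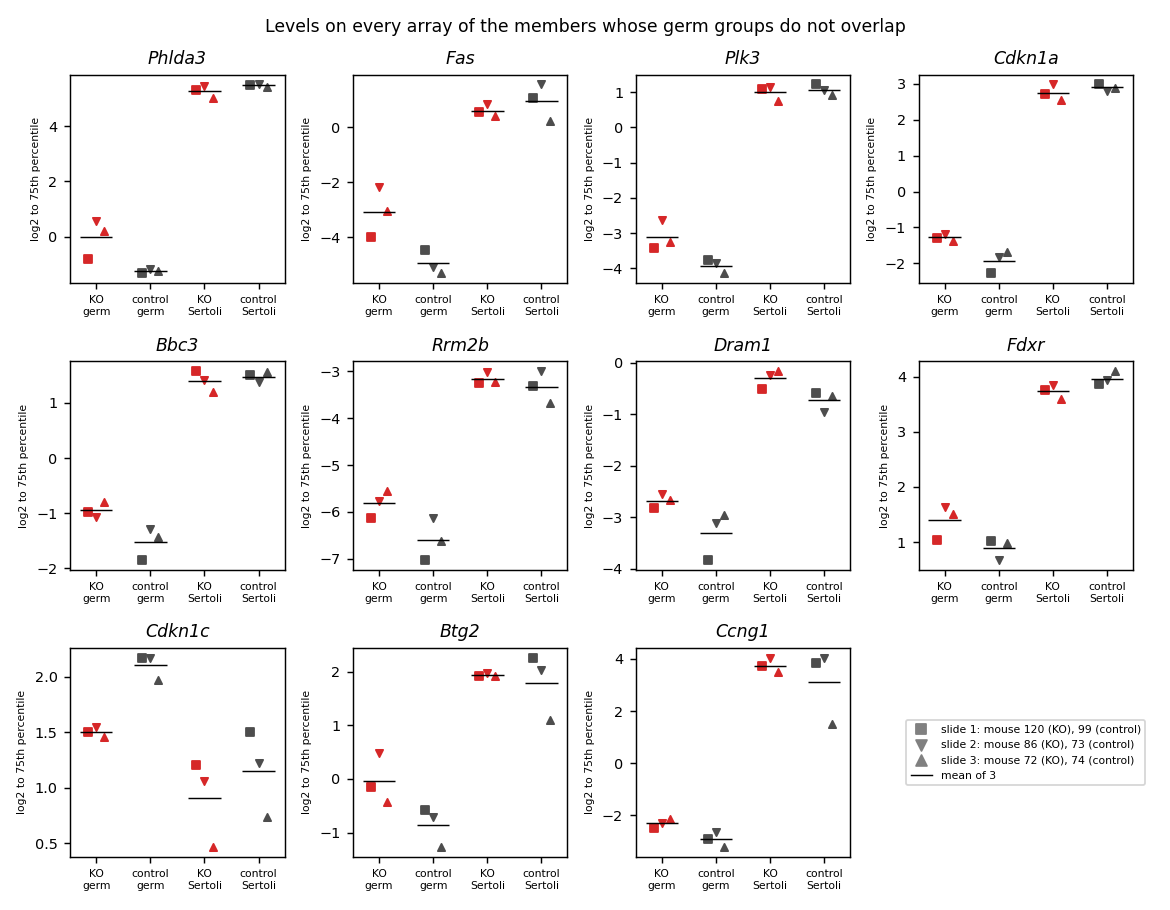
Level on every array (log2 relative to the array's 75th percentile; axes differ between panels) of the 11 members whose germ groups do not overlap, with knockout (KO, red) left of control (grey), symbols for the slide and lines for the mean of 3. In 10 panels the KO germ points lie above the control germ points, and in Cdkn1c below.

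The other 24 members overlapped in germ cells. Gadd45a, a growth arrest and DNA damage protein, had a difference of 1.04 ± 0.62 with knockout germ arrays at -2.61, -3.77 and -2.12, against control germ arrays at -5.49, -2.84 and -3.27. Control mouse 99 was far below the other 2 controls, and it was also the lowest germ array for the 14-3-3 sigma gene Sfn (difference 0.86) and for the endoplasmic reticulum protein Ei24 (0.65). Gdf15, a secreted stress hormone of the TGF-beta family, had a difference of 0.58 ± 0.29 (adjusted p = 0.765 in limma), and Bax, the pore-forming effector of the mitochondrial route, of 0.42 ± 0.22 (adjusted p = 0.801 in limma). Zmat3, Pmaip1, Triap1, Aen, Ddb2, Polk, Ercc5, Tnfrsf10b, Perp, Trp53inp1 and Xpc all had differences between -0.08 and 0.10.

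Within slides, 11 members were higher in the knockout germ array on all 3 slides (12.1% of all genes), Cdkn1c was lower on all 3 (18.7%), and 23 had mixed signs. Of the roles, 7 of 9 cell cycle members, 9 of 12 apoptosis members, both death receptors measured above background in germ cells (Fas and Tnfrsf10b), 3 of 5 DNA repair members and 5 of 5 metabolism and autophagy members had a positive germ difference. None of these counts contained a call.

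Most markers of somatic cell types moved in the same direction in the germ comparison. All 9 macrophage markers tested had a positive difference, with a summed level of 2.29 to 3.98 in knockout germ arrays, against 1.91 to 1.92 in control germ arrays, and none was called. The 4 Leydig markers tested were positive. With Lhcgr, which was not tested, the 5 on the array summed to 6.72 to 12.5 in knockout germ arrays, against 2.32 to 5.79 in control germ arrays. In control germ cells no array measured Lhcgr well above background. Of 9 myoid and fibroblast markers, 8 were positive and Pdgfra was called higher (1.25 ± 0.19, adjusted p = 0.0354 in limma). That call was lost with only the groups compared (adjusted p = 0.392) and on leaving out any single mouse other than 120 (adjusted p = 0.0802 to 0.402). It was also lost with quantile scaling (0.0628), the deposited table (0.0724), normexp background (0.567), no filter on dim probes (0.0736) and the 8-month mice alone (0.165). Without both controls titled het the difference was 1.38. Of 11 Sertoli markers tested, 9 were positive, and the sums of the 12 listed are given above. All 4 endothelial markers were positive, and none was called. Of 9 spermatid markers, 1 was positive, with sums of 450 to 535 in knockout germ arrays, against 467 to 586 in control germ arrays. Of 8 spermatocyte markers 2 were positive, and of 6 spermatogonia markers 3 were positive. The part of these cell types in the germ differences of the members was not tested.

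In the fraction labelled Sertoli, the members showed neither a call nor a common direction. Limma called 0% of all genes higher and 0% lower here, and the smallest adjusted p of a member was 1. The difference was positive for 15 of 35 members with a median of -0.04, and positive for 8707 of 25028 genes with a median of -0.10. At an unadjusted p below 0.05, 0 members were higher and 1 was lower, against 0.643% and 2.38% of all genes. Within slides, 6 members were higher in the knockout Sertoli array on all 3 slides (7.51% of all genes) and 8 were lower (18.0%). The member of smallest p was Perp, a desmosomal membrane protein and apoptosis effector.

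Perp read -0.46, 0.34 and -1.16 in knockout Sertoli arrays, against 0.55, 0.95 and -0.17 in control Sertoli arrays. In Perp the groups overlapped, but the knockout mouse was lower on every slide, and the difference was -0.87 ± 0.38 (SE, n = 3 each, adjusted p = 1 in limma). In germ arrays Perp read -2.58, -2.17 and -2.21 in knockouts, against -2.25, -2.66 and -2.33 in controls.

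Groups did not overlap in 4 members. In Dram1, Xpc and Gadd45a all knockout Sertoli arrays lay above the controls (1.86% of all genes), and in Fdxr below (4.84% of all genes). Dram1 read -0.50, -0.24 and -0.15 in knockout Sertoli arrays, against -0.58, -0.95 and -0.65 in control Sertoli arrays, a difference of 0.43 ± 0.24. Xpc, which recognises helix-distorting DNA lesions, read -0.07, -0.02 and 0.29 in knockout Sertoli arrays, against -0.14, -0.15 and -0.21 in control Sertoli arrays, a difference of 0.23 ± 0.17. In Dram1 the knockouts were also above the controls in germ cells, while Xpc overlapped there with a difference of 0.10 ± 0.17. Gadd45a read 1.74, 1.74 and 2.09 in knockout Sertoli arrays, against 1.46, 1.56 and 0.94 in control Sertoli arrays, a difference of 0.54 ± 0.62. Fdxr read 3.76, 3.86 and 3.60 in knockout Sertoli arrays, against 3.86, 3.93 and 4.11 in control Sertoli arrays, a difference of -0.23 ± 0.20. All 4 had an adjusted p of 1 in limma.

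The other members of smallest p in this fraction were Tnfrsf10b, the TRAIL death receptor (-0.40 ± 0.24), Dram1, Bax (-0.33 ± 0.22) and Xpc. Ccng1 and the apoptosome scaffold Apaf1 had positive differences of 0.61 and 0.40 that came from 1 control array. On the Sertoli array of mouse 74, which had the lowest 75th percentile of all, Ccng1 read 1.50 and Apaf1 -1.87, while the other controls read 3.85 and 4.05 for Ccng1 and -0.13 and 0.60 for Apaf1. The part of the low signal of this array was not tested.

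The members that stood apart in germ cells did not do so in the fraction labelled Sertoli, Dram1 and Fdxr excepted. Phlda3 read 5.32, 5.46 and 5.03 in knockout Sertoli arrays, against 5.48, 5.53 and 5.43 in control Sertoli arrays. Fas read 0.57, 0.85 and 0.41 in knockout Sertoli arrays, against 1.08, 1.58 and 0.23 in control Sertoli arrays. Plk3 read 1.10, 1.16 and 0.75 in knockout Sertoli arrays, against 1.23, 1.05 and 0.93 in control Sertoli arrays. These 3 overlapped between genotypes, as did Cdkn1a at 2.73, 2.99 and 2.55 in knockout Sertoli arrays, against 3.00, 2.81 and 2.90 in control Sertoli arrays. Bbc3 read 1.58, 1.41 and 1.21 in knockout Sertoli arrays, against 1.50, 1.38 and 1.55 in control Sertoli arrays, and Rrm2b read -3.25, -3.02 and -3.24 in knockouts, against -3.32, -2.99 and -3.67 in controls, again with overlap in both.

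The difference between the 2 knockout effects, Sertoli minus germ, was tested directly and called in 0 members, and in 0.00799% of all genes (2 genes). At an unadjusted p below 0.05, 0 members were positive and 7 negative, against 0.487% and 4.09% of all genes. The 5 members of smallest p were Phlda3 (-1.45 ± 0.42, adjusted p = 0.742 in limma), Fas (-2.22 ± 0.65, adjusted p = 0.742), Cdkn1a (-0.79 ± 0.28, adjusted p = 0.907), Plk3 (-0.89 ± 0.32, adjusted p = 0.952) and Fdxr (-0.73 ± 0.28, adjusted p = 0.952). All 5 were negative. The value was positive for 10 of the 35 members and negative for 25, with a median of -0.17. Over all genes it was positive for 9879 of 25028, with a median of -0.09. No member was thus shown to differ between the fractions in its response to the genotype.

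Between the fractions the members differed far more than between the genotypes. In knockout mice 28 of 35 members were called higher in the fraction labelled Sertoli and 2 lower, where 37.9% of all genes were called higher and 37.1% lower. In control mice 30 were called higher and 2 lower, where 39.8% of all genes were called higher and 36.5% lower. The share of members called higher was 80.0% in knockout and 85.7% in control mice. Both counts include Eda2r, which was kept for testing only through the Sertoli arrays. Among the 33 members well above background on all 12 arrays, 26 were called higher in knockout and 28 in control mice. Of the 17931 genes kept by that rule, 8295 were called higher in knockout and 8694 in control mice. The median difference of the members was 2.38 in knockout and 3.00 in control mice, against 0.09 in knockout and 0.21 in control mice over all genes. The 28 members called higher in knockouts were all among the 30 called higher in controls, and both lower calls were of the same genes. Levels of the fractions are set side by side after scaling arrays of very different make-up, and the marker sums of the fractions given above differ in the same comparison, so their part in these differences was not tested.

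**Figure D3:**
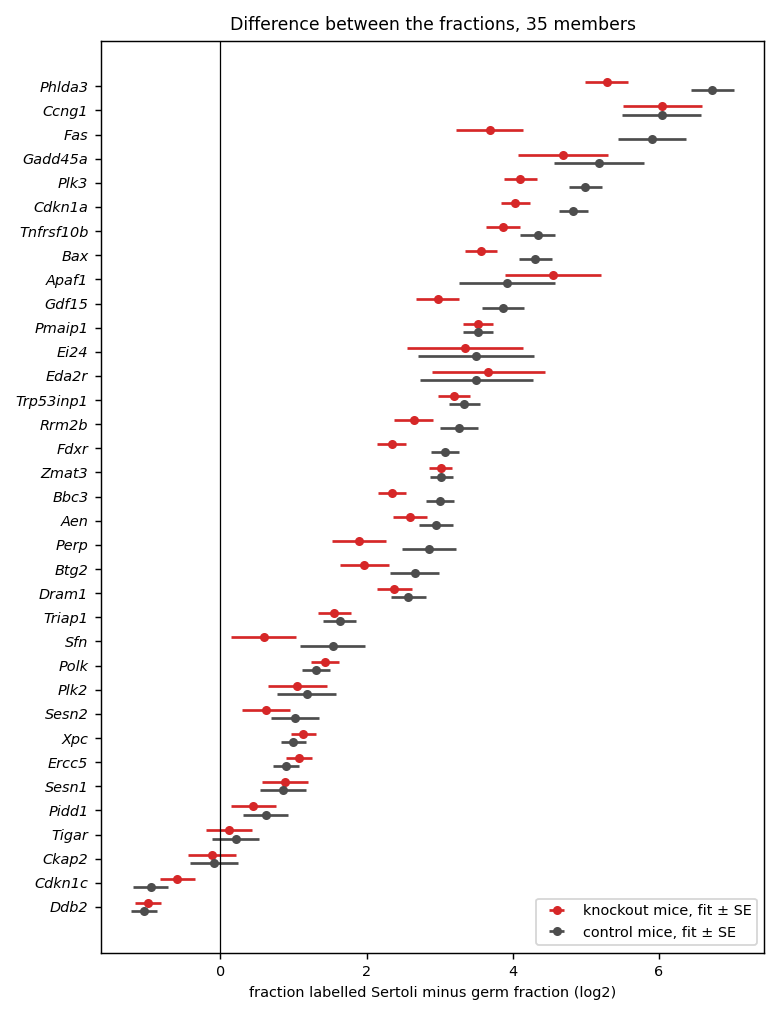
Sertoli minus germ fraction differences on the log2 scale (fit ± SE) for the 35 members, ordered by the control value, with knockout mice in red above control mice in grey. Phlda3 lies farthest to the right in control mice (6.73), Ckap2 and Tigar lie near 0, and Cdkn1c and Ddb2 lie below 0.

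Phlda3 had a difference of 5.29 ± 0.30 in knockout mice and 6.73 ± 0.30 in control mice (SE, n = 3 each), a linear fold of 39 in knockout and 106 in control mice. Adjusted p-values in limma were 2.79e-08 in knockout and 3.77e-09 in control mice. Its Sertoli arrays stood at 5.03 or above, while no germ array was above 0.56. Fas, which differed by 3.69 ± 0.46 in knockout mice and 5.91 ± 0.46 in control mice, had the widest gap between the genotypes, and that gap is the interaction given above.

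Among the cell cycle members, 6 of 9 were called higher in knockout and 7 of 9 in control mice. Ccng1, whose promoter window holds the decamer pair printed above, read 3.71, 4.03 and 3.49 in knockout Sertoli arrays, against -2.50, -2.29 and -2.13 in knockout germ arrays, and 3.85, 4.05 and 1.50 in control Sertoli arrays, against -2.89, -2.62 and -3.22 in control germ arrays. The difference was 6.05 ± 0.54 in knockout and 6.04 ± 0.54 in control mice. Gadd45a differed by 4.69 ± 0.62 in knockout and 5.18 ± 0.62 in control mice, Plk3 by 4.10 ± 0.23 in knockout and 5.00 ± 0.23 in control mice, and Cdkn1a by 4.04 ± 0.20 in knockout and 4.83 ± 0.20 in control mice. Btg2 read 1.93, 1.98 and 1.92 in knockout and 2.26, 2.04 and 1.09 in control Sertoli arrays, and differed from germ by 1.97 ± 0.33 in knockout and 2.66 ± 0.33 in control mice. The adjusted p in limma was at most 0.000231 for these 5 genes.

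Plk2, a polo-like kinase like Plk3, was called higher with smaller differences of 1.05 ± 0.40 in knockout and 1.18 ± 0.40 in control mice. Its adjusted p-values in limma were 0.0345 in knockout and 0.0198 in control mice. The call was lost without mouse 72 (0.142) or 120 (0.0944) in knockouts and without mouse 99 (0.22) in controls. Sfn, whose product holds back entry to mitosis, was called in control mice (1.53 ± 0.45, adjusted p = 0.00904 in limma) and not in knockout mice (0.59 ± 0.45, adjusted p = 0.256). The difference between these 2 values was not called (adjusted p = 0.999 in limma), and without mouse 99 the control call was lost (0.0878).

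Cdkn1c was the cell cycle member called lower in the fraction labelled Sertoli. It read 1.20, 1.06 and 0.47 in knockout Sertoli arrays and 1.50, 1.22 and 0.74 in control Sertoli arrays, each below the germ array of the same mouse given above. The difference was -0.59 ± 0.24 in knockout mice (adjusted p = 0.0435 in limma) and -0.95 ± 0.24 in control mice (adjusted p = 0.00368). The knockout call was lost without mouse 72 (0.231), 73 (0.0716), 86 (0.108) or 120 (0.061). Ckap2, a spindle-associated protein, was not called in either genotype (-0.12 ± 0.33 in knockout and -0.09 ± 0.33 in control mice). Its promoter window holds a decamer, and a link between decamers and the fraction differences was not tested.

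Of the apoptosis members, 11 of 12 were called higher in both genotypes, and Pidd1, the death-domain scaffold of caspase-2, was not (0.45 ± 0.31 in knockout and 0.62 ± 0.31 in control mice). Bax read 3.10, 3.23 and 3.10 in knockout Sertoli arrays, against -0.72, -0.15 and -0.39 in knockout germ arrays, and 3.22, 3.60 and 3.60 in control Sertoli arrays, against -0.47, -1.12 and -0.93 in control germ arrays. The fractions were far apart, with differences of 3.56 ± 0.22 in knockout and 4.31 ± 0.22 in control mice. Bbc3, an activator of Bax, differed by 2.35 ± 0.19 in knockout and 3.00 ± 0.19 in control mice.

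Pmaip1, the BH3-only protein Noxa, read 1.78, 1.71 and 1.32 in knockout Sertoli arrays, against -1.78, -2.04 and -1.94 in knockout germ arrays, and 1.70, 1.66 and 1.55 in control Sertoli arrays, against -2.28, -1.60 and -1.78 in control germ arrays. Its difference of 3.52 ± 0.21 in knockout and 3.52 ± 0.21 in control mice was the same in both genotypes to 2 decimals. Zmat3, an RNA-binding zinc finger protein, read 2.39, 2.55 and 2.25 in knockout Sertoli arrays, against -0.70, -0.50 and -0.66 in knockout germ arrays, and 2.48, 2.54 and 2.29 in control Sertoli arrays, against -0.58, -0.64 and -0.54 in control germ arrays. With an SE of 0.15 it was the member measured with least error, and its differences were 3.01 in knockout and 3.02 in control mice.

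Apaf1 read -0.25, 0.05 and 0.00 in knockout Sertoli arrays, against -5.04, -3.57 and -5.25 in knockout germ arrays, and -0.13, 0.60 and -1.87 in control Sertoli arrays, against -3.59, -4.19 and -5.39 in control germ arrays. Its differences were 4.55 ± 0.66 in knockout and 3.92 ± 0.66 in control mice, with a wide error. Ei24 read 0.96, 0.45 and 0.90 in knockout Sertoli arrays, against -1.65, -4.18 and -1.90 in knockout germ arrays, and 0.83, -0.77 and 0.75 in control Sertoli arrays, against -4.83, -2.77 and -2.09 in control germ arrays. It spread most of the apoptosis members within the groups, and its differences were 3.35 ± 0.79 in knockout and 3.50 ± 0.79 in control mice.

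Trp53inp1, a stress-induced nuclear body protein, read 2.40, 2.73 and 2.39 in knockout Sertoli arrays, against -0.67, -0.66 and -0.76 in knockout germ arrays, and 2.53, 2.89 and 2.24 in control Sertoli arrays, against -1.08, -0.47 and -0.81 in control germ arrays. Aen, a nuclease that digests DNA during apoptosis, read 3.69, 3.81 and 3.79 in knockout Sertoli arrays, against 0.93, 1.25 and 1.33 in knockout germ arrays, and 3.76, 4.07 and 4.42 in control Sertoli arrays, against 1.50, 0.75 and 1.15 in control germ arrays. Their differences were 3.20 and 2.59 in knockout mice and 3.34 and 2.95 in control mice. Perp differed by 1.90 ± 0.38 in knockout and 2.86 ± 0.38 in control mice, and Triap1, a mitochondrial inhibitor of apoptosis, by 1.56 ± 0.22 in knockout and 1.63 ± 0.22 in control mice.

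All 3 death receptors were called higher in both genotypes. Eda2r was kept for testing only through its Sertoli arrays, where it is high, so its call is not independent of that filter. Tnfrsf10b read 0.93, 1.06 and 0.33 in knockout Sertoli arrays, against -3.10, -3.36 and -2.82 in knockout germ arrays, and 1.15, 1.04 and 1.34 in control Sertoli arrays, against -3.32, -3.27 and -2.90 in control germ arrays. Its differences were 3.87 ± 0.24 in knockout and 4.34 ± 0.24 in control mice. Eda2r, the receptor for ectodysplasin A2, read -3.80, -4.03 and -4.02 in knockout Sertoli arrays and -3.62, -6.02 and -3.34 in control Sertoli arrays. Because no germ array measured it well above background, with readings of -7.32, -8.23 and -7.30 in knockouts and -9.47, -7.32 and -6.70 in controls, its fold is a lower bound, set against the higher of its own signal and the lowest signal well above background. It was at least 9.61-fold higher in the Sertoli fraction of knockout mice and at least 6.52-fold higher in that of control mice (adjusted p = 0.00114 for knockout and 0.00153 for control mice in limma). Without control mouse 73 the bound in control mice was 10.8-fold and without control mouse 99 it was 4.88-fold.

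Of the 5 DNA repair members, 4 were called higher and Ddb2 lower in both genotypes. Ddb2, the damage sensor that works beside Xpc in nucleotide excision repair, read -1.71, -1.40 and -1.61 in knockout Sertoli arrays, against -0.65, -0.33 and -0.77 in knockout germ arrays, and -1.75, -1.58 and -1.68 in control Sertoli arrays, against -0.41, -0.75 and -0.71 in control germ arrays. The difference was -0.99 ± 0.18 in knockout and -1.04 ± 0.18 in control mice (adjusted p = 0.000378 in knockout and 0.000253 in control mice in limma). Xpc went the other way (1.13 ± 0.17 in knockout and 0.99 ± 0.17 in control mice), as did Ercc5, the endonuclease that cuts on the 3′ side of a lesion (1.08 ± 0.18 in knockout and 0.90 ± 0.18 in control mice). Rrm2b differed by 2.64 ± 0.26 in knockout and 3.26 ± 0.26 in control mice.

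Polk, the translesion DNA polymerase kappa, gave opposite results on its 2 probes, which carry the same transcript accession. Probe A_55_P2000533, the brighter one on average and the one tested, read -0.35, -0.14 and -0.35 in knockout Sertoli arrays, against -1.61, -1.83 and -1.69 in knockout germ arrays, and -0.12, -0.34 and -0.65 in control Sertoli arrays, against -1.92, -1.44 and -1.68 in control germ arrays. Its differences were 1.43 ± 0.19 in knockout and 1.31 ± 0.19 in control mice. Probe A_55_P2205690 read -4.48, -4.54 and -4.55 in knockout Sertoli arrays, against -1.33, -1.15 and -1.30 in knockout germ arrays, and -4.46, -4.94 and -3.62 in control Sertoli arrays, against -1.51, -1.04 and -0.96 in control germ arrays. Its differences were -3.26 ± 0.29 in knockout and -3.17 ± 0.29 in control mice. Both probes were well above background on all arrays, so the direction of Polk between the fractions is not settled. Between genotypes neither probe moved, with germ differences of -0.03 and -0.09.

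**Figure D4:**
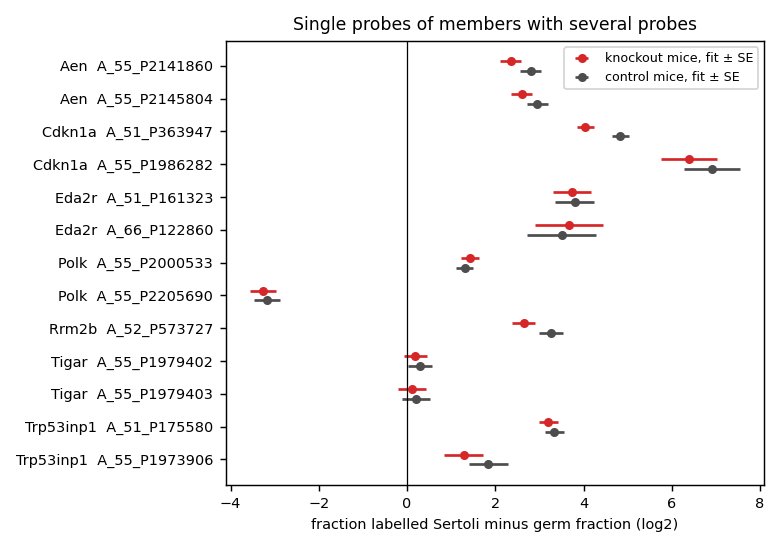
Sertoli minus germ fraction differences on the log2 scale (fit ± SE) of single probes of the members with several probes, knockout mice in red above control mice in grey; of Rrm2b the kept probe is drawn. The probes of Polk lie on opposite sides of 0, those of Trp53inp1 differ in size, and those of Aen and Tigar lie close together. The Cdkn1a probe A_55_P1986282 is near background in germ arrays. Neither Eda2r probe was well above background on any germ array, so the sizes drawn for them are limited by the background.

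Probes of the other members agreed in direction. A probe for a further Cdkn1a transcript, A_55_P1986282, was well above background on all 6 Sertoli arrays and on 1 of 6 germ arrays, so the size of its difference is not given. The further Trp53inp1 probe, A_55_P1973906, had smaller ones, of 1.28 ± 0.44 in knockout and 1.84 ± 0.44 in control mice.

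Of the 5 metabolism and autophagy members, 3 were called higher in knockout and 4 in control mice. Fdxr differed by 2.34 ± 0.20 in knockout and 3.07 ± 0.20 in control mice, and Dram1 by 2.38 ± 0.24 in knockout and 2.57 ± 0.24 in control mice. Sesn1, a stress-inducible regulator of mTORC1, differed by 0.88 ± 0.31 in knockout and 0.85 ± 0.31 in control mice, and Sesn2, its relative, by 0.63 ± 0.33 in knockout and 1.02 ± 0.33 in control mice. Sesn2 was not called in knockout mice (adjusted p = 0.107 in limma, and 0.999 for the difference between genotypes). The Sesn1 call was lost without mouse 72 (0.134) or 120 (0.167) in knockouts and without mouse 72 (0.0507), 73 (0.194) or 74 (0.0901) in controls, and the Sesn2 call in controls without mouse 99 (0.0911). Tigar, a fructose-bisphosphatase that slows glycolysis, was not called (0.12 ± 0.32 in knockout and 0.21 ± 0.32 in control mice).

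Gdf15 read -0.11, 0.50 and -0.41 in knockout Sertoli arrays, against -3.38, -2.63 and -2.92 in knockout germ arrays, and 0.10, 0.64 and 0.21 in control Sertoli arrays, against -3.38, -3.38 and -3.90 in control germ arrays. The fractions did not overlap, and the difference was 2.97 ± 0.29 in knockout and 3.87 ± 0.29 in control mice (adjusted p = 2.67e-06 in knockout and 2.62e-07 in control mice in limma).

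A further 20 p53 targets outside the member list were looked at for comparison, and 19 were tested. In germ cells 0 were called, 2 had an unadjusted p below 0.05, and the 3 of smallest p were Rprm, a G2 arrest gene that was well above background on 1 of 3 knockout and 0 of 3 control germ arrays (adjusted p = 0.099 in limma), the epoxide hydrolase Ephx1 (1.01 ± 0.33, adjusted p = 0.358) and the ephrin receptor Epha2 (0.50 ± 0.26, adjusted p = 0.803). Of all genes, 6.11% were higher and 1.23% lower in germ cells at an unadjusted p below 0.05. Of the 19, 12 had a positive germ difference with a median of 0.14, and 2 had a positive Sertoli difference with a median of -0.20. Over all 25028 genes, 11384 had a positive germ difference (median -0.04) and 8707 a positive Sertoli difference (median -0.10). Between the fractions 13 of the 19 were called higher and 1 lower in each genotype, the lower one being the ubiquitin ligase subunit Fbxw7 (-1.16 ± 0.19 in knockout and -1.02 ± 0.19 in control mice). Of all genes, 37.9% were called higher and 37.1% lower in knockout mice, and 39.8% higher and 36.5% lower in control mice. The 13 include Rprm and Lif, which were kept for testing only through the Sertoli arrays. The 4 family regulators gave no call between genotypes, and 0 had an unadjusted p below 0.05. Mdm4, the p53 inhibitor, was called lower in the fraction labelled Sertoli, with differences of -1.93 ± 0.21 in knockout and -2.33 ± 0.21 in control mice. Trp63, the gene of the relative p63, was called lower there in knockout mice (-1.22 ± 0.36, adjusted p = 0.00893 in limma) and not in control mice (-0.78 ± 0.36, adjusted p = 0.0649), and the difference between the genotypes did not pass (adjusted p = 0.999). The Trp53 probe ranged from -9.38 on a control germ array to -0.48 on a knockout Sertoli array, and all its differences were within 2 SE of 0 (SE 1.70).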

How the data were processed

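RNA of 12 fractions was labelled with Cy3 and hybridised to 1-colour Agilent arrays. The deposited processed intensity had its background subtracted and spatial trend removed by Agilent Feature Extraction 10.7.3.1 on an mm9 grid, per the file headers, and was not scaled between arrays. The deposited median spot and background intensity columns are uncorrected. The authors also deposited a log2 table, whose column medians are 8.292 to 8.293 and whose probe order is that of the processed signal (lowest Spearman rho 0.9999). Per the submitters' processing notes limma was used, with no version or steps given, so the scale of that table is known only from its values.

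Control spots (1377 of 44397) and outlier spots were left out and spots of a probe averaged. Signals were taken as log2 minus the array's 75th percentile. Probes were named through their transcript accession in the RefSeq table of GRCm38.p6 (26055 of 39429). Probes were kept (30531) if in 1 or more groups all 3 arrays measured them well above background, and the brightest probe on average stood for a gene, which left 25028 genes. Limma 3.58.1 (R 4.3.3) was fitted on 4 group means over all 12 arrays, with Benjamini-Hochberg adjustment over all genes and a threshold of 0.05. P-values measure the spread between these mice, and 3 arrays per group limit the precision. The script was checked on simulated data.

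The members, roles and other lists were chosen with earlier results of these data known. All members could be named, with full statistics for those past the threshold or otherwise the 5 of smallest p, and with values on every array where the genotypes did not overlap or the fractions differed by over 2. Each animal gave both fractions, which pairs its arrays across the fractions by design. Deviations from the group means correlated with r of 0.256 (mouse 120), 0.283 (86), 0.203 (72), -0.161 (99), -0.115 (73) and 0.463 (74). Alternatives covered scaling, the deposited table, normexp background, filters, probe choice, slide, pairing, each mouse left out, the controls titled het, age, and the groups fitted.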

Additional observations from a re-analysis of the deposited data

Results flagged for a closer look

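Phlda3 and Fdxr moved in opposite directions in the 2 fractions on every slide. The share of all genes with this pattern was not counted. Some of the slide differences were small. Fdxr differed by 0.02 in germ cells on slide 1, and Phlda3 by -0.07 in the fraction labelled Sertoli on slide 2. For Phlda3 the knockout minus control difference was 1.2371 in germ cells and -0.2115 in the fraction labelled Sertoli, and for Fdxr it was 0.5000 and -0.2276. The test of the difference itself did not pass for either, with an adjusted p in limma of 0.742 for Phlda3 and 0.952 for Fdxr.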

How the results depend on the processing

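The call counts between genotypes stayed at 0 in all settings run, except that without replicate mouse 120 Phlda3 was called higher in germ cells, so that the count of members called higher ran from 0 to 1 when each mouse was left out in turn. The count of 2 members called lower in the fraction labelled Sertoli fell to 1 in knockout mice with normexp background, with no filter on dim probes and with the 8-month mice alone, and ran from 1 to 2 over the mice left out. In control mice it fell to 1 without both controls titled het. In each of these cases Cdkn1c lost its call and Ddb2 kept it. With the mean over probes in place of the brightest probe, Polk reversed to -0.9314 in control mice (adjusted p = 0.000763 in limma) and -0.9178 in knockout mice (adjusted p = 0.000868), because its probes disagree.

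Taking the mouse as a replicate block changed no call. Genotypes cannot be paired by mouse, so a common correlation of 0.126 between the arrays of a mouse was used there. It gave 0 members called in germ cells and 0 in the fraction labelled Sertoli. Between the fractions the arrays were paired by mouse, with 30 higher and 2 lower in control mice and 28 higher and 2 lower in knockout mice. The median difference of all genes between the fractions was 0.09 in knockout and 0.21 in control mice, 0.41 in knockout and 0.44 in control mice with quantile scaling, and 0.14 in knockout and 0.85 in control mice with normexp. With quantile scaling 30 members were called higher in knockout and 31 in control mice. The count of 54 genes called higher in germ cells was 3 with normexp, 1 with the 8-month mice alone, 0 with only the groups compared and 0 without both controls titled het, 27 with no filter on dim probes, and 2 to 129 over the mice left out in turn. Over the alternatives the calls of Plk2, Sfn, Sesn1 and Sesn2 between fractions were lost in 2 or more settings each. Of the values of single members compared, 26 lost and 1 gained a call, 2 reversed and 25 moved by at least their SE. The median over members in the fraction labelled Sertoli was -0.04, and it was 0.01 with quantile scaling, 0.01 with the deposited table and 0.06 without mouse 72. Where an alternative leaves 1 control mouse, that mouse is assumed to vary like the other groups. Eda2r and Rrm2b are limited by signal near background in germ arrays.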
